A study of Homo sapiens with 12 samples.

Results

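The nuclear genes for the respiratory chain and the ATP synthase were followed in a hepatocellular carcinoma line, HuH-7, exposed to SLMP53-2. Members were all gene probes whose name on the array began with NDUFA, NDUFB, NDUFC, NDUFS or NDUFV, with COX4 to COX8, with UQCR or with ATP5, or was SDHA, SDHB, SDHC or SDHD. This gave 144 probes for 95 gene names among the 41000 gene probes and 29123 gene names of the array. Of the 95 names, 81 are subunits of the complexes, with 37 in complex I, 4 in complex II, 8 in complex III, 17 in complex IV and 15 in complex V. The other 14 match by name only and comprise 7 complex I assembly factors, 4 antisense transcripts or pseudogenes, COX7A2L, ATP5S and ATP5SL. Only COX7B2 was lost to the filter on dim probes, which left 80 subunit genes and 94 names to test. Each gene is given by its brightest tested probe, and names are those of the array's design, 20 of which have since been replaced (ATP5G1 is now ATP5MC1, and NDUFA4 is now COXFA4).

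HuH-7 is of human origin and carries mutant p53 with the Y220C change, and SLMP53-2 is a small molecule studied as a reactivator of that mutant. All cells were from this line and received SLMP53-2 at 28 µM, SLMP53-2 at 42 µM or the solvent DMSO for 24 h, with 4 arrays per group and 12 in all on 5 slides. One label field gives 48 µM for the higher dose, while the titles give 42 µM, the name used here. All 8 hepatocyte marker genes examined were well above background on all 12 arrays. So were 5 of 9 markers of other cell types, namely COL1A2 and VIM (mesenchymal), CD68 (macrophage), VWF (endothelial) and KRT19 (biliary), while the leukocyte marker PTPRC was on none. The log2 fold changes of these other markers at 42 µM ran from -0.15 to 0.37, with no adjusted p under 0.187, and their part in the results below was not tested. Between 65.0% and 85.0% of gene spots on an array were well above background, no gene spot was saturated, and the number of arrays limits the precision. Values are normalized log2 intensities, in which a difference of 1 is a doubling, and they cannot be compared between genes because each probe has its own brightness. A gene was called when its adjusted p from limma was below 0.05 and its log2 fold change was at least 0.6 in size. In a culture measured in bulk, fewer cells of a type and less RNA per cell cannot be told apart.

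Complexes I to IV pass electrons from NADH and succinate to oxygen in the inner mitochondrial membrane, and complexes I, III and IV pump protons as they do so. Complex V, the ATP synthase, lets the protons flow back and makes ATP. Some catalytic subunits are encoded by mitochondrial DNA, and those measured here are the nuclear-encoded ones, which have to be made in step with them. Liver cells depend strongly on this pathway.

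No member gene was called in any of the 3 comparisons. At 28 µM against DMSO, 0 of 94 members were called, beside 0% of all 24168 genes in each direction. That 0% depended on 1 array, because without replicate 4 at 28 µM 2.43% of all genes were called there, though still 0 members. It also departs from the paper, which reports changed genes at both doses with limits of adjusted p and log2 change as used here. The reason for this difference was not tested. At 42 µM against DMSO, 0 of 94 were called, beside 1.42% of all genes lower and 1.58% higher, and by the adjusted p alone 0 of 94, beside 1.66% and 1.8%. The smallest adjusted p of a member was 0.308 at 28 µM and 0.0592 at 42 µM (limma). No member was called between 42 µM and 28 µM either, beside 0% of all genes. There, 0 subunit genes had an unadjusted p below 0.05, beside 1.46% of all genes lower and 1.11% higher, and of 78 genes 1 lay lower without overlap (NDUFA9, -0.13) and 0 higher, beside 0.924% and 0.688%. The 95% confidence interval of the fold change lay wholly within 0.6 of zero for 61 of 80 subunit genes at 28 µM and for 58 at 42 µM. For the others a change of that size was not excluded.

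The point estimates of the subunit genes nevertheless leaned to one side. The median log2 fold change of the 80 genes was -0.14 at 28 µM and -0.17 at 42 µM, a difference of about 10.8% at the higher dose, while the median of all genes tested was -0.02 at both doses. The value was below zero for 62 subunit genes at 28 µM (77.5%, beside 54.6% of all genes) and for 66 at 42 µM (82.5%, beside 54.3%). At an unadjusted p below 0.05, 5 of the 80 subunit genes were lower and 1 higher at 28 µM, beside 6.29% and 5.59% of all genes. The lower count at this dose was thus near the share of all genes. At 42 µM, 15 were lower and 1 higher, beside 7.71% and 8.35%. At 42 µM, 18 of 79 subunit genes with a value on every array had 4 treated arrays below all 4 DMSO arrays, beside 7.01% of all genes, and 1 had all of them above, beside 5.94%. The 1 higher gene in each of these counts was NDUFA4L2, which passed the filter on dim probes only through the treated arrays. At 28 µM, 3 of 79 lay below without overlap (NDUFS6, UQCR10 and COX8A) and 0 above, beside 2.93% and 2.79%. That lower count, too, was near the share of all genes. Bright genes gave larger shares than all genes at 42 µM. Of 1883 genes with a mean log2 value of 12 or more, 324 lay lower without overlap and 207 higher. Of the 63 subunit genes this bright, 16 lay lower and 0 higher. At an unadjusted p below 0.05, 313 of 1896 such bright genes were lower and 251 higher, and of the 63, 13 and 0. By this measure the share lower among the 63 was not far above that of all bright genes. The 2 doses were compared with the same DMSO arrays, so their values are not independent of each other.

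The medians of the single arrays show how large this lean was beside the replicate spread. Taken against the DMSO mean of each gene, the median over the 80 subunit genes was 0.12, -0.03, -0.07 and 0.01 on DMSO arrays 1 to 4. It was -0.13, -0.16, -0.10 and -0.02 at 28 µM. It was -0.21, -0.20, -0.12 and -0.10 at 42 µM. The 4 arrays at 42 µM thus lay below all DMSO arrays, whereas replicate 4 at 28 µM lay among them. Within a slide, where a treated array and a DMSO array were scanned together, the median difference at 42 µM was -0.20 on slide 2, -0.13 on slide 4 and -0.12 on slide 5. At 28 µM it was -0.25 on slide 1, -0.10 on slide 2 and 0.03 on slide 4. With the slide as a block the medians were -0.13 at 28 µM and -0.14 at 42 µM.

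**Figure D1:**
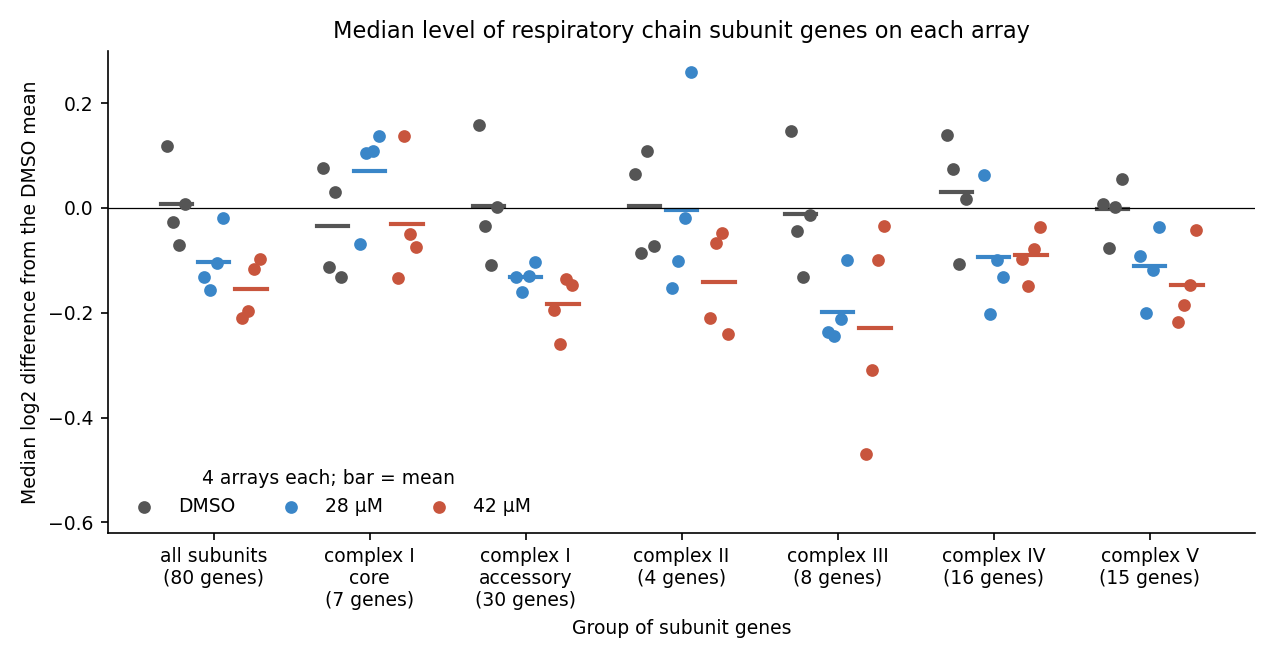
Median log2 difference from the DMSO mean over the genes of each complex, 1 point per array and a bar for the mean of the 4 arrays of a group. Over all 80 subunit genes the 42 µM arrays lie between -0.21 and -0.10, below every DMSO array. The same holds for the accessory genes of complex I, while for its core genes and for complexes II to V the 42 µM and DMSO arrays overlap.

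Complex I oxidizes NADH and is built from core subunits, some of which carry the flavin and the iron-sulfur clusters, and from accessory subunits around them. Its 37 nuclear genes had a median log2 fold change of -0.14 at both doses, with 28 below zero at 28 µM and 32 at 42 µM. The median of the 30 accessory genes was -0.16 and -0.18, and that of the 7 core genes was 0.07 and -0.01. The core median was not stable in sign, running from -0.17 to 0.11 over the alternatives at 28 µM and from -0.25 to 0.05 at 42 µM. It was -0.16 at 28 µM when Edwards values were scaled to the 75th percentile, -0.03 with the mean of a gene's probes and -0.04 without DMSO replicate 4. The accessory median stayed below zero, from -0.36 to -0.11 and from -0.42 to -0.14. Lower without overlap at 42 µM lay 7 accessory genes (NDUFA8, NDUFA9, NDUFA10, NDUFB3, NDUFB11, NDUFC1 and NDUFS6) and 0 of the 7 core genes. This stands beside 7.01% of all genes, and beside 324 of 1883 genes with a mean log2 value of 12 or more. The difference between core and accessory genes was not tested.

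NDUFB3, an accessory subunit of the membrane arm, read 15.001, 14.66, 14.71 and 14.85 on the DMSO arrays. It read 14.50, 14.29, 14.52 and 14.85 at 28 µM, and 14.22, 14.40, 14.55 and 14.40 at 42 µM. All 42 µM arrays were below the lowest DMSO array, whereas replicate 4 at 28 µM was level with DMSO replicate 4. The log2 fold change was -0.27 (SE 0.13) at 28 µM and -0.41 (SE 0.13) at 42 µM, with adjusted p of 0.491 and 0.128. NDUFB1, another membrane-arm subunit, had a DMSO mean of 13.16 ± 0.29 (SD, n = 4), 12.71 ± 0.21 at 28 µM and 12.77 ± 0.12 at 42 µM, and its groups overlapped through DMSO replicate 3 at 12.76. Its log2 fold changes were -0.44 and -0.39, the former the lowest of complex I at 28 µM. NDUFA2 had -0.31 and -0.34, NDUFA12 -0.33 and -0.26, and NDUFAB1, the mitochondrial acyl carrier protein, -0.18 and -0.27. None of NDUFB1, NDUFA2, NDUFA12 and NDUFAB1 had an adjusted p under 0.223.

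NDUFV1, which binds the flavin and takes electrons from NADH, read 14.57, 14.49, 14.75 and 14.30 on DMSO, 14.51, 14.83, 14.73 and 14.98 at 28 µM and 14.39, 14.97, 14.87 and 14.79 at 42 µM. Its groups overlapped, with log2 fold changes of 0.24 and 0.23 and an adjusted p of 0.551 at 42 µM. NDUFS1, the largest of the iron-sulfur subunits, had 0.07 and -0.00, and NDUFS7, which holds the last cluster before quinone, 0.07 and -0.01. The confidence intervals of all 7 core genes at 42 µM lay within 0.6 of zero. Of the spread within the groups, 97.6% lay between slides for NDUFS1 and 94.2% for NDUFV1. Over all tested subunit genes this share ran from 3.31% (NDUFA10) to 97.6%. Part of it arises without any slide effect, because only 12 arrays were split over 5 slides. The values of NDUFS1, NDUFS7 and NDUFV1 at 28 µM turned below zero under another scaling, as given with the processing alternatives. The 7 assembly factors NDUFAF1 to NDUFAF7, which help build complex I and are not part of it, had medians of -0.02 and 0.04, from -0.20 for NDUFAF3 to 0.27 for NDUFAF2 at 42 µM. The antisense transcripts and the pseudogene had log2 fold changes of -0.06 to 0.05 at 42 µM.

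Complex II, succinate dehydrogenase, feeds electrons from the citric acid cycle to quinone and pumps no protons. It is made wholly of nuclear-encoded subunits. SDHA, the flavoprotein, had log2 fold changes of -0.04 and -0.15. SDHB, the iron-sulfur subunit, had -0.02 and -0.16. Of the membrane anchors, SDHC had 0.14 and -0.07, and SDHD had 0.01 and -0.19. The median of the 4 genes was -0.00 at 28 µM and -0.15 at 42 µM, and none of them separated the groups. The per-array median at 28 µM ran from -0.15 to 0.26, with replicate 4 the highest.

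Complex III passes electrons from quinol to cytochrome c. It had the lowest median of the 5 complexes, -0.17 at 28 µM and -0.25 at 42 µM, and all 8 of its genes were below zero at both doses. UQCR10, a small membrane subunit next to cytochrome c1, read 14.86, 14.70, 14.52 and 14.41 on DMSO. It read 14.22, 14.10, 14.23 and 14.41 at 28 µM, and 13.93, 14.002, 14.23 and 14.32 at 42 µM. The groups did not overlap at either dose, though replicate 4 at 28 µM was level with the lowest DMSO array when rounded. The log2 fold change was -0.38 (SE 0.13, adjusted p = 0.309) at 28 µM and -0.50 (SE 0.13, 95% CI -0.78 to -0.22, adjusted p = 0.0592) at 42 µM. Within slides the 42 µM value was -0.48, -0.51 and -0.47, and fitting the slide as a block gave -0.48 (adjusted p = 0.135). The probe lies on chromosome 22, 30165827 to 30165886 on the plus strand (hg19), and a second, dimmer UQCR10 probe gave -0.19 at 42 µM.

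The other complex III genes had smaller values. UQCRQ, a quinone-binding small subunit, had -0.30 and -0.35, and UQCRH, the acidic hinge protein, -0.17 and -0.33. Of the core proteins, UQCRC1 had -0.14 and -0.17 and UQCRC2 had -0.17 and -0.32. UQCRC2 had no value on 42 µM replicate 1, its confidence interval at 42 µM ran from -1.19 to 0.56, and without 42 µM replicate 2 its value was 0.25. UQCRFS1, the Rieske iron-sulfur protein, had -0.13 and -0.15. The per-array median of complex III at 42 µM was -0.47, -0.31, -0.10 and -0.03 on replicates 1 to 4, and DMSO ran from -0.13 to 0.15, so the groups overlapped.

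Complex IV, cytochrome c oxidase, reduces oxygen. It had the smallest share of genes below zero at 42 µM of all the complexes, with 9 of 16. Its median was -0.15 at 28 µM and -0.10 at 42 µM. The 16 genes include NDUFA4L2 and COX7A1, both above zero at each dose. These passed the filter on dim probes only through the treated arrays, which bears on the median and the share. No median or share of complex IV without them is given. COX7B, a small subunit needed for assembly, read 13.35, 13.29, 13.04 and 13.23 on DMSO, 12.95, 12.55, 12.86 and 13.29 at 28 µM and 12.67, 12.53, 12.84 and 12.93 at 42 µM. All 42 µM arrays were below DMSO, and replicate 4 at 28 µM was again among the DMSO arrays. At 42 µM its log2 fold change stood at -0.49 (SE 0.15, adjusted p = 0.114). The dimmer COX7B probe gave 0.00, so the probes of this gene disagreed. NDUFA4, once counted with complex I and now placed in complex IV, had -0.26 and -0.41 and did not overlap with DMSO at 42 µM. COX7A2 had -0.27 and -0.30, COX6B1, which bridges the dimer on the side of cytochrome c, -0.14 and -0.34, and COX5B -0.02 and -0.18.

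COX4I1, the regulatory subunit found in most tissues, had 0.09 and 0.08, both below zero when scaled to the 75th percentile, and its paralog COX4I2 had 0.12 and 0.01. NDUFA4L2, a paralog of NDUFA4 known as a hypoxia-induced gene, was dim. It read 5.81, 5.30, 5.76 and 5.65 on DMSO, where no array was well above background, 5.93, 6.18, 5.78 and 5.87 at 28 µM and 5.90, 6.20, 6.04 and 6.14 at 42 µM. It was well above background on 3 arrays at 28 µM and 2 at 42 µM, and COX7A1, the muscle isoform, on 0 DMSO arrays, 2 at 28 µM and 1 at 42 µM. Both were kept only through the treated arrays, so their differences from DMSO are not read as results. They do remain in the medians and counts of complex IV and of all subunit genes. COX7A2L, which joins complexes III and IV into supercomplexes and is no subunit, had 0.19 and 0.29.

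Complex V had a median of -0.12 at 28 µM and -0.18 at 42 µM, with 13 of 15 genes below zero at each dose. The proton-driven ring of its membrane part is built from subunit c, and ATP5G1, ATP5G2 and ATP5G3 encode the same mature protein with different import sequences. ATP5G1 read 14.22, 13.98, 14.08 and 13.94 on DMSO. Its probe lies on chromosome 17, 46970798 to 46971772 on the plus strand (hg19). It read 13.45, 13.51, 13.88 and 14.19 at 28 µM, and 12.99, 13.23, 13.62 and 13.66 at 42 µM. The 42 µM arrays all lay below the lowest DMSO array, and the 28 µM arrays spread from the 42 µM range into the DMSO range. The log2 fold change was -0.29 (SE 0.19, adjusted p = 0.585) at 28 µM and -0.68 (SE 0.19, 95% CI -1.08 to -0.28, adjusted p = 0.0697) at 42 µM, the lowest of the 80 subunit genes at that dose. It was -0.94, -0.86 and -0.35 within slides 2, 4 and 5, and -0.64 when the slide was fitted as a block (adjusted p = 0.129).

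ATP5G3 read 16.32, 16.29, 16.49 and 16.46 on DMSO, 16.17, 16.14, 15.90 and 16.59 at 28 µM and 15.73, 15.97, 15.96 and 16.21 at 42 µM. Again the 42 µM arrays did not overlap with DMSO and 28 µM replicate 4 was the highest of all 12. At 42 µM the value of this gene came to -0.43 on the log2 scale (SE 0.15, adjusted p = 0.161), and its dimmer probe gave -0.02. ATP5G2 read 15.21, 15.24, 15.11 and 15.11 on DMSO, 15.10, 15.14, 15.15 and 14.99 at 28 µM and 14.91, 15.06, 15.17 and 15.12 at 42 µM. Its groups overlapped, with a value at 42 µM of -0.10 on the log2 scale (SE 0.10, 95% CI -0.31 to 0.11). The difference between the 3 subunit c genes was not tested. Of the catalytic head, ATP5A1 (subunit alpha) had -0.05 and -0.30, ATP5B (subunit beta) -0.08 and -0.00, ATP5C1 (subunit gamma) 0.20 and -0.18, and ATP5O in the peripheral stalk -0.11 and -0.13.

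**Figure D2:**
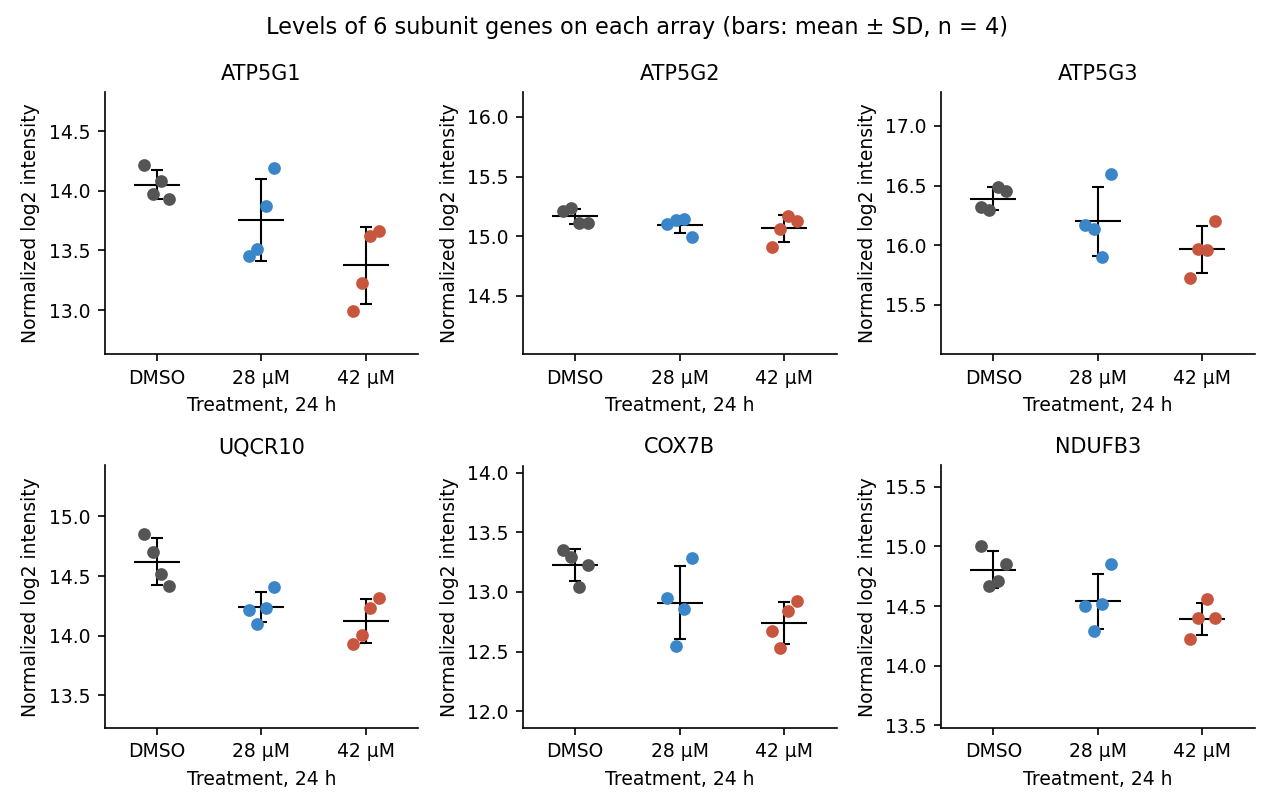
Normalized log2 intensity of 6 subunit genes on each array of DMSO, 28 µM and 42 µM, with the mean and SD of the 4 arrays; the axes differ in position but all span the same range. The 42 µM points of ATP5G1, ATP5G3, UQCR10, COX7B and NDUFB3 lie below all DMSO points, while those of ATP5G2 do not.

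**Figure D3:**
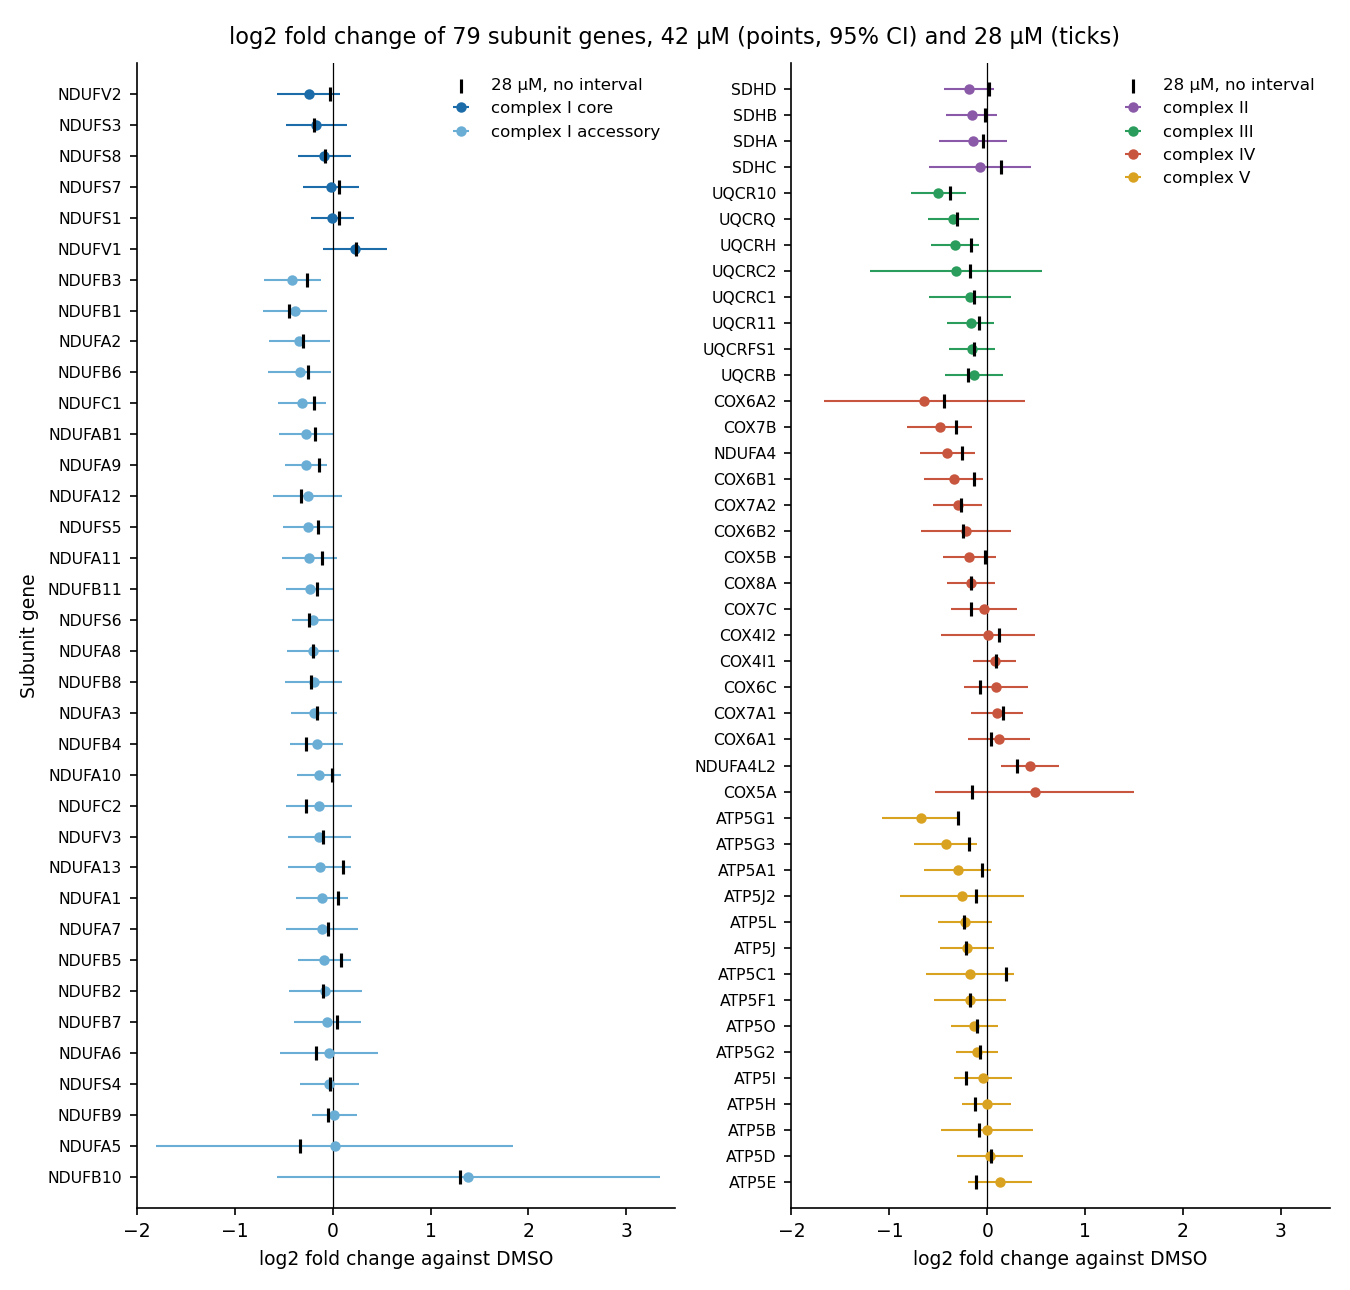
The log2 fold change against DMSO of 79 of the 80 tested subunit genes, at 42 µM as points with their 95% confidence interval and at 28 µM as ticks, ordered within each complex. Most points lie left of zero, the core genes of complex I sit around it, and NDUFB10, NDUFA5, COX5A and COX6A2 have the widest intervals.

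Some of the largest point estimates rested on single arrays or on slides. NDUFB10 read 7.88 on DMSO replicate 2 and 13.07 to 13.45 on the other 11 arrays, so its log2 fold changes of 1.30 and 1.39 came from 1 array, and without that array they were -0.05 and 0.04. COX5A, a matrix-side subunit of complex IV, had 0.49 at 42 µM, yet 95.8% of its spread within the groups lay between slides. It read 11.95 to 12.23 on slides 2 and 5, 11.47 and 11.87 on slide 3 and 10.19 to 10.89 on slides 1 and 4, whatever the treatment. COX6B2 followed the slides to 96.4%. COX6A2, with -0.45 and -0.64, and NDUFA5, with -0.34 and 0.02, spread over 2.48 and 3.698 log2 units across the arrays. None of these had an adjusted p under 0.541. Among the 37 members with several tested probes, 11 had probes of opposite sign at 42 µM, and 5 had probes more than 0.3 apart.

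**Figure D4:**
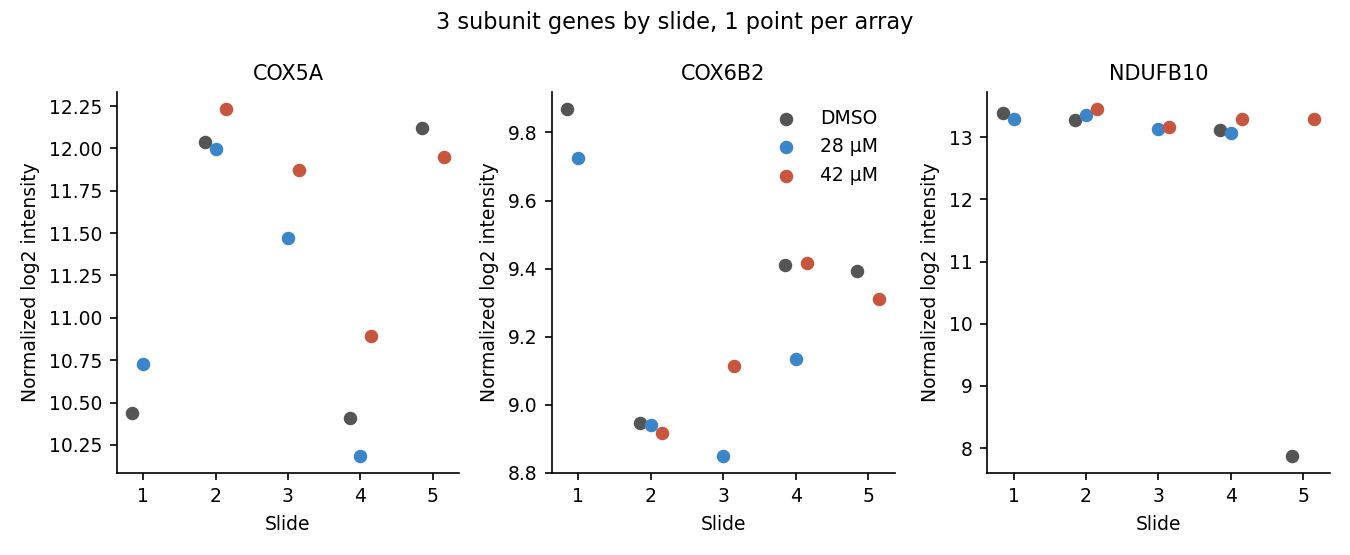
Normalized log2 intensity of COX5A, COX6B2 and NDUFB10 by slide, 1 point per array coloured by treatment. COX5A and COX6B2 group by slide rather than by treatment, and NDUFB10 is level on 11 arrays and at 7.88 on DMSO replicate 2.

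Nuclear respiratory genes are known to share binding sites for a few transcription factors in their promoters, among them NRF1, the ETS factor GABPA and YY1. Of the 81 subunit genes, 67 had a promoter in the RefSeq table of GRCh38.p14, taken from 250 bases before the start to 50 after. On either strand, GCGCANGC, a form of the NRF1 site, stood in 43.3% of them and in 14.2% of all 27305 genes of the table. CCGGAAGT, an ETS site, stood in 16.4% against 4.95%, AAGATGGCG, a YY1 site, in 13.4% against 2.14%, and TGACGTCA, the cyclic AMP response element, in 7.46% against 2.25%. CCAAT stood in 34.3% against 39.7%. None of these motifs contains another, and a match is a description of the sequence, not a site. Among the 17 genes with a promoter that lay below DMSO without overlap at 42 µM, 8 held GCGCANGC (47.1%), near the share of all subunit genes. Mitochondrial ribosomal protein genes held it in 33.8%.

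The bases before the start of 4 genes are shown because ATP5MC1, UQCR10 and COX7B had among the lowest values at 42 µM and ATP5MC2 encodes the same protein as ATP5MC1 with a value near zero. Capitals mark matches to any of the 5 motifs. ATP5MC1 (ATP5G1) lies at chr17:48892537-48892786 on the plus strand, with 1 match of TGACGTCA starting 57 bases before the start and 4 of CCAAT. ATP5MC2 (ATP5G2) has 3 starts in the table, and the first, at chr12:53676084-53676333 on the minus strand, has 1 match of GCGCANGC. Its other starts are not shown. The second has 1 match of GCGCANGC and 1 of CCAAT, and the third has 1 of CCAAT. UQCR10 lies at chr22:29767119-29767368 on the plus strand, with 1 match of GCGCANGC and 1 of CCAAT. COX7B lies at chrX:77899218-77899467 on the plus strand and has no match in this window.
ATP5MC1: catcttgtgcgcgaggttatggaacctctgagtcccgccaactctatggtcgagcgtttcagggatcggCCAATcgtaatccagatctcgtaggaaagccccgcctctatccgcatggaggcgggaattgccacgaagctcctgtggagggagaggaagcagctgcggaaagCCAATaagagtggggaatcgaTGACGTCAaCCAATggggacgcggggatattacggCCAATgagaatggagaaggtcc
ATP5MC2: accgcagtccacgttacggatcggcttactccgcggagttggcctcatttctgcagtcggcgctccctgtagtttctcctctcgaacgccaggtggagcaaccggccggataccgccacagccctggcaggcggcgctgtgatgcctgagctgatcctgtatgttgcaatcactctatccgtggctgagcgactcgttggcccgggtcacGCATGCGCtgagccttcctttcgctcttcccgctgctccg
UQCR10: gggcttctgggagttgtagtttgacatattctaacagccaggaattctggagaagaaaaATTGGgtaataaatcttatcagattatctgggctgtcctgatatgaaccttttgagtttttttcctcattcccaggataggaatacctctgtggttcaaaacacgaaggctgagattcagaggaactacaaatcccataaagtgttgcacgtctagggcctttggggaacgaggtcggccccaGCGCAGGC
COX7B: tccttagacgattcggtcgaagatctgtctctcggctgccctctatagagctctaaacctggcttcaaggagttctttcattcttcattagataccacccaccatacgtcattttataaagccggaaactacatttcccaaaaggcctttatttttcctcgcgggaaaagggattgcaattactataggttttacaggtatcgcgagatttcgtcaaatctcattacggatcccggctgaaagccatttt

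Other genes of the pathway gave both calls and near-zero values. Of 17 regulators of respiratory genes and mitochondrial DNA, 0 were called at 42 µM, and 1 passed the adjusted p alone, ESRRA, beside 1.8% of all genes higher. This nuclear receptor, which drives respiratory genes together with the coactivator PPARGC1A, read 10.65, 10.85, 10.59 and 10.90 on DMSO and 11.50, 11.29, 11.26 and 11.35 at 42 µM. The groups did not overlap, and the log2 fold change of 0.60 (SE 0.14, adjusted p = 0.0365) fell just short of the limit before rounding. PPARGC1A itself read 7.499, 7.39, 7.27 and 7.18 on DMSO and 8.73, 8.33, 7.95 and 7.70 at 42 µM, again without overlap, with 0.84 (SE 0.26, adjusted p = 0.107). NRF1 had -0.21 and TFAM, the packaging factor of mitochondrial DNA, -0.35, with adjusted p of 0.521 and 0.271.

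Outside the rule, the electron carriers and small partners gave no call. CYCS, cytochrome c, had 0.07, CYC1, the cytochrome c1 of complex III, -0.25, and ATPIF1, the inhibitor of the ATP synthase, -0.20. Of 42 assembly factors not matched by the rule, 2 passed the adjusted p at 42 µM and neither the fold limit, 1 in each direction, which is near the 1.66% lower and 1.8% higher of all genes. These were UQCC3, a complex III assembly factor, with -0.55 (adjusted p = 0.0409), and TTC19, which also serves complex III, with 0.53 (adjusted p = 0.0427). In the citric acid cycle, 1 of 18 genes passed, FH, which encodes fumarase and follows succinate dehydrogenase, with -0.44 (adjusted p = 0.0401), beside 1.66% of all genes lower.

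Of 13 mitochondrial chaperones and proteases, 1 was called at 42 µM, LONP1, beside 1.58% of all genes higher. This matrix protease read 12.99, 12.96, 13.08 and 13.02 on DMSO, 13.57, 13.78, 13.68 and 13.22 at 28 µM and 13.88, 14.22, 13.62 and 13.55 at 42 µM. It rose by 0.80 on the log2 scale (SE 0.16, adjusted p = 0.0185) at 42 µM, and no treated array overlapped with DMSO at either dose. Its adjusted p ran from 0.00615 to 0.10 over 26 alternatives and passed in 19 of them. The call was lost without DMSO replicate 1, 2 or 4, without 42 µM replicate 2, under both scalings to the 75th percentile and when the slide was a block. The 77 mitochondrial ribosomal protein genes, needed to make the mitochondrially encoded subunits, had medians of -0.13 and -0.18, much like the subunit genes, with 66 of 77 below zero at 42 µM. Of these, 2 were called at 42 µM, MRPL17 with -0.69 (adjusted p = 0.0437) and MRPS6 with -0.63 (adjusted p = 0.0421), close to the 1.42% of all genes called lower. MRPL20 passed the adjusted p with -0.51 (adjusted p = 0.0268). Many of these results depended on single arrays. MRPL17, MRPS6 and FH each passed the adjusted p in 13 of 26 alternatives, ESRRA and TTC19 in 14, UQCC3 in 15 and MRPL20 in 16. MRPL17, MRPS6, FH and ESRRA missed it without 28 µM replicate 3 and whenever any single DMSO or 42 µM array was left out. UQCC3 missed it without 28 µM replicate 3 or any such array but DMSO replicate 3, and TTC19 and MRPL20 without any such array but 42 µM replicate 4. None of these genes, 0 of 8 with LONP1 included, passed once the slide was fitted as a block.

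The size of the lean depended on the scaling, and most subunit genes are bright. Of the 80, 63 had a mean log2 value of 12 or more, beside 1896 of 24168 genes. With quantile normalization the median of those 1896 bright genes was -0.03 at 28 µM and -0.02 at 42 µM, and that of the 63 bright subunit genes was -0.14 and -0.17. When arrays were instead scaled to their 75th percentile after Edwards correction, the subunit median was -0.31 and -0.37, but the median of bright genes moved too, to -0.21 and -0.22, while that of all genes stayed at -0.03 and -0.05. The subunit median was below that of bright genes under both scalings. The bright genes were set by the limit of 12 alone and not matched to the subunit genes in level. The part of brightness in the lean was not tested. With Edwards values scaled to the 75th percentile, 4 members passed the adjusted p at 42 µM, namely ATP5G1, ATP5G3, NDUFB3 and UQCR10.

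**Figure D5:**
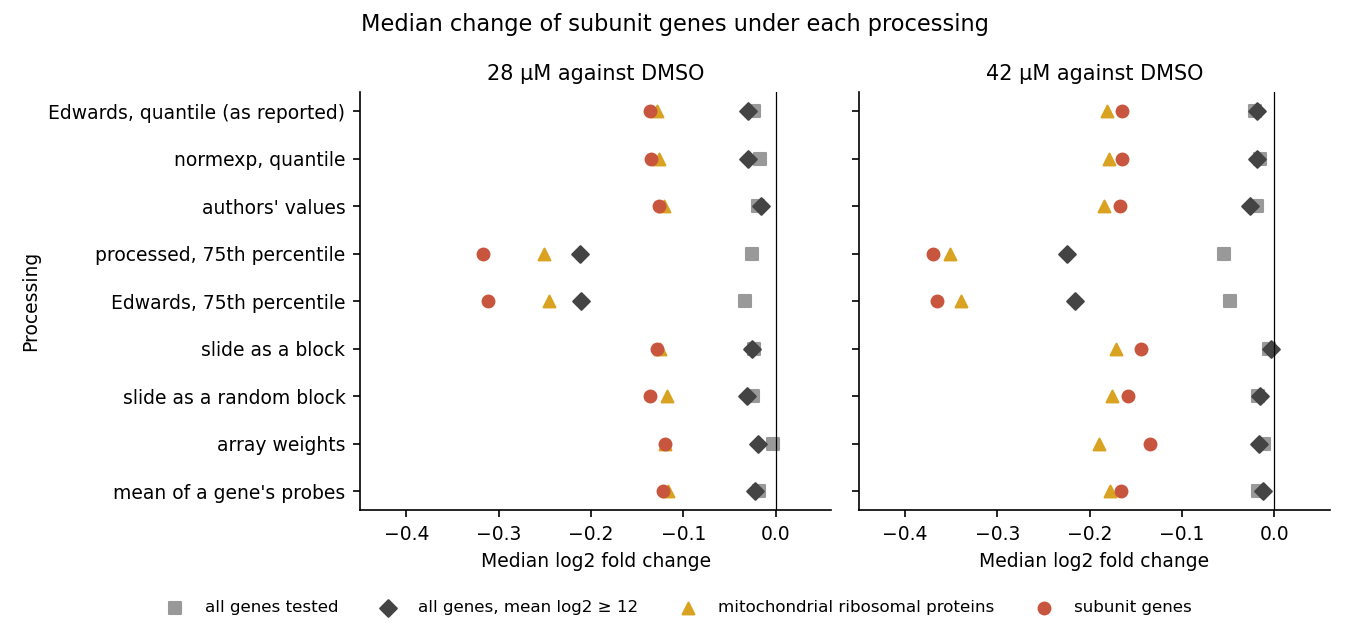
Median log2 fold change of the subunit genes, of mitochondrial ribosomal protein genes, of all genes with a mean log2 value of 12 or more and of all genes tested, under 9 ways of processing, at 28 µM (left) and 42 µM (right). The subunit median lies below that of bright genes and of all genes in every row, and scaling to the 75th percentile moves it from -0.17 to -0.37 at 42 µM together with that of bright genes.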

How the data were processed

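RNA from 12 HuH-7 samples was hybridised to 1-colour Agilent 4x44K arrays. The deposited files give the intensity of each spot (mean, background and processed signal), read by the authors with Agilent Feature Extraction, for which the labels and file headers give version 10.7.3.1, and the deposited series table holds the authors' normalized log2 values, used as an alternative. Spots flagged as outliers were set to missing. Edwards background correction was applied, log2 was taken, the log2 values were quantile normalized, and the spots of a probe were then averaged. A probe was dropped if, in each group, 3 or 4 arrays had it below the well-above-background call, which left 33467 of 41000. limma 3.58.1 (R 4.3.3) was fitted to all 12 arrays with lmFit and eBayes, with Benjamini-Hochberg adjustment over all 33467 probes, and scripts were tested on simulated data. Each gene was taken by its brightest tested probe. Motifs were counted with Python 3.11.15 and pandas 2.3.3, and plots made with matplotlib 3.10.9.

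Genes named in the text were subunits called in any comparison, the 10 largest fold changes at each dose, a fixed set of core, catalytic and isoform genes with their regulators and carriers, and up to 3 called genes of each other list. Other genes were named after their values were seen: subunits without overlap, the third subunit c gene, those with probes or arrays apart, and the ends of a range. One gene that the rule names is not reported here. Members and lists were chosen with earlier results of these data known. The labels call the 4 replicates per group biological. Alternatives were other background corrections and scalings, filters, the authors' values, slide and replicate blocks, array weights, the mean of a gene's probes, a log2 fold limit of 1 and leaving out each array. Fits without NDUFB10, and without 28 µM replicate 4 and DMSO replicate 2 together, were chosen after seeing the data.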

Additional observations from a re-analysis of the deposited data

Results flagged for a closer look

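In 10 of 166 groups of 4 arrays tested, 1 array lay far from the other 3 by Dixon's ratio, which chance does in about 1 of 20 groups. The widest gap was NDUFB10 at 7.88 on DMSO replicate 2, with the other DMSO arrays at 13.11 to 13.39. On 42 µM replicate 1, UQCRC1 was 12.34 (others 12.91 to 12.99) and ATP5B was 12.62 (others 13.29 to 13.40). NDUFS7 was 14.43 on 42 µM replicate 2 (others 14.22 to 14.24). NDUFS1 was 13.29 on 28 µM replicate 1 (others 13.43 to 13.46). On 28 µM replicate 4, SDHA was 11 (others 10.54 to 10.59) and SDHB was 12.31 (others 11.94 to 11.99). SDHB was also 11.90 on DMSO replicate 2 (others 12.12 to 12.16). COX7A2L was 11.57 on DMSO replicate 3 (others 11.83 to 11.85), and MRPS6 was 12.18 on 28 µM replicate 2 (others 12.46 to 12.52).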

How the results depend on the processing

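The subunit median stayed below zero under every alternative run. With the Edwards values or the processed signal scaled to the 75th percentile, it was -0.31 or -0.32 at 28 µM and -0.37 or -0.37 at 42 µM. Complex I then had -0.34 or -0.31 and -0.37 or -0.38, complex III -0.36 or -0.41 and -0.43 or -0.46, complex IV -0.27 or -0.28 and -0.25 or -0.26, and complex V -0.32 or -0.33 and -0.30 or -0.32. Over all alternatives complex II ran from -0.12 to 0.034 at 28 µM (below zero in 17 of 26) and from -0.26 to -0.12 at 42 µM. Leaving out 1 array at a time gave subunit medians of -0.16 to -0.10 at 28 µM and -0.20 to -0.13 at 42 µM, for complex I at 28 µM -0.16 to -0.065 (lowest in size without DMSO replicate 1), and for complex IV at 28 µM -0.19 to -0.053 (without DMSO replicate 2). At 42 µM it gave -0.21 to -0.12 for complex I and -0.30 to -0.18 for complex III. There, complex IV ran from -0.16 to -0.064 and complex V from -0.24 to -0.11. With 28 µM replicate 4 and DMSO replicate 2 both left out, complex IV at 28 µM was -0.0037. Members called at 42 µM numbered 3 of 94 (3.19%, beside 2.8% of all genes) with the Edwards values and 2 (2.13%, beside 2.04%) with the processed signal at the 75th percentile, and 1 each (1.06%) with only the 2 groups compared, the replicate block and the slide as a random block, beside 4.01%, 4.58% and 3.75%, against 0 as reported, and leaving out 1 array gave 0 to 1, the 1 without 28 µM replicate 4. By adjusted p alone the counts were 4, 2, 2, 1 and 2, with 3 for array weights and 1 for normexp, and 0 to 2 without 1 array (2 without 28 µM replicate 4). No member passed at 28 µM under any alternative.

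Of 50 named genes, 22 at 28 µM and 9 at 42 µM had the other sign under at least 1 alternative. Those that turned by more than the replicate SD at 28 µM were ATP5G3 to 0.024 with the mean of its probes, COX4I1 to -0.11 or -0.15, NDUFS1 to -0.12 or -0.11 and -0.031 with the mean of its probes, NDUFS7 to -0.16 or -0.17, and NDUFV1 to -0.013 with the processed signal, where pairs are the Edwards values and the processed signal at the 75th percentile. At 42 µM this was COX4I1, to -0.15 or -0.17. Others turned within that SD. Of these, the widest range across zero at 42 µM among the named respiratory subunits other than NDUFA5 was that of UQCRC2, from -0.63 to 0.25. At 28 µM, NDUFB10 ran from -0.048 to 1.79 and COX5A from -0.49 to 0.44. The cause was not tested. With the slide as a block the calls over all genes at 42 µM went from 724 to 1, and without DMSO replicate 2 or without 42 µM replicate 2 to 0.

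Arrays with the same replicate number deviated together in 7 of 12 pairs (correlation over 0.1, range -0.46 to 0.62), and 3 of 12 correlated best with their own number. These few correlations do not settle whether the numbers pair the samples. With the replicate block, 1106 genes were called at 42 µM, against 724 without it. Of these, 1 was a member, ATP5G1 (-0.68, adjusted p = 0.0379). With 4 arrays per group the median half-width of the confidence interval was 0.298.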
